A study of Mus musculus with 2 samples.

Results

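The population described is the set of Tsc1 knockout (KO) aortic smooth muscle cells that kept a high share of contractile transcripts. Cells were chosen by their measured contractile share: at least 4% of a cell's UMIs (unique molecular identifiers, each standing for 1 captured RNA molecule) came from 18 contractile genes. Membership also required at least 500 detected genes, at most 10% mitochondrially encoded UMIs, at least 5 UMIs of the eGFP reporter, and fewer than 2 UMIs summed over Dlx5, Dlx6 and Msx2, 3 homeobox genes. Of 2097 KO barcodes 1806 met the gates and 676 of these met the share limit. The 676 cells are 37.4% of the gated KO cells, and 4192 barcodes were deposited in all. They were compared with 1326 control cells inside the same gates whose contractile share lay between 4% and the highest share of any KO member.

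Both groups were male C57BL/6 mice carrying Myh11-CreERT2, a tamoxifen-inducible recombinase driven by the smooth muscle myosin promoter, and the mT/mG reporter, which turns recombined cells and their descendants eGFP-positive. Controls are labelled Tsc1+/+ and the KO mice carried Tsc1fl/fl, and all received tamoxifen at 1.5 weeks of age. Thoracic aortas were digested at 24 weeks, viable GFP+ cells were sorted, and 1 droplet library was made per genotype. How many animals went into a library is not stated in the labels. A single library per genotype allows no test across animals, so every comparison describes these libraries only, and intervals in parentheses are 95% intervals that cover counting error only.

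Smooth muscle cells of the aortic media contract through actin and smooth muscle myosin, and the genes of this apparatus are driven largely by serum response factor with its coactivator myocardin. Tsc1 encodes hamartin, which together with tuberin (Tsc2) restrains mTORC1, the kinase complex that promotes growth and holds back lysosome biogenesis and autophagy by keeping the transcription factors TFEB and TFE3 out of the nucleus. Vascular smooth muscle can lose contractile transcripts and take up a synthetic, inflammatory or bone-like program, usually called modulation.

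The 676 KO cells held 10853560 UMIs, with a median of 14839 per cell (4801 to 47056), 3689 genes and 6.03% mitochondrially encoded UMIs. The control cells held 16110388 UMIs, with a median of 12128 per cell, 3265 genes and 4.85% mitochondrially encoded UMIs. The libraries therefore differ in depth, and shares of cells are given after thinning each cell to 5000 UMIs, which left out 2 KO and 57 control cells. Xist, the RNA of the female inactive X chromosome, had 0 UMIs in the KO members and 2 in the control cells, although the ungated control library holds Xist-positive cells that the eGFP minimum removes. The libraries share 16 barcodes, of which 0 are KO members and 4 are control cells compared here. Levels are CPM, the UMIs of a gene per 1000000 UMIs of the population. Tsc1 stood at 6.27 CPM in KO members and 9.13 CPM in control cells, a ratio of 0.687 (0.507 to 0.921). Droplet counts tag a transcript end that can lie outside the deleted part, so these counts do not check the genotype label.

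Smooth muscle markers were present in nearly every KO member: Myh11 (smooth muscle myosin heavy chain) and Acta2 (smooth muscle actin) had a UMI in 676 cells and Cnn1 (calponin) in 675. These genes are part of the rule, so this only describes it. Myocd, the gene of myocardin and not in the rule, had a UMI in 330 KO and 663 control cells, at 47.1 and 64.6 CPM. Some markers of several other cell types had no UMI, while others of the same lists had a few. The macrophage genes C1qa and Adgre1 had 0 UMIs, and Lyz2 3.04 CPM. Cdh5, Kdr and Tek of endothelium, Cd3e and Cd79a of lymphocytes, Adipoq and Cidec of adipocytes, and Dct and Pmel of melanocytes also had 0 UMIs. By contrast, Pecam1 of endothelium had 6.08 against 16.9 CPM in control cells, and Gzma of lymphocytes 0.737 against 10.2 CPM. Cd68 of macrophages had 4.61 against 6.52 CPM. Mlana of melanocytes had 12 UMIs in 11 KO members and 0 in control cells. Among fibroblast markers Pi16 had 0 UMIs, Pdgfra 9.40 against 4.47 CPM in the control, and Col1a1 223 against 411 CPM. The fibroblast markers Lum and Dcn were higher, at 30.2 against 2.42 CPM and 40.4 against 12.4 CPM, with a UMI in 172 and 176 KO members. In all 2 of 3 fibroblast markers at 10 CPM or more were higher and 1 lower. Of pericyte markers, Abcc9 had 215 against 98.0 CPM and Rgs5 22.5 against 333 CPM. Of muscle markers Tnnt2 had 149 against 82.1 CPM, while Ckm went the other way at 0.369 against 10.1 CPM, and Myh6 had 0 UMIs. Whether other cells contributed to any difference below was not tested. Fabp4, an adipocyte and capillary gene, was at 226 against 135 CPM. No marker list of macrophages, Schwann cells or melanocytes had a member at 10 CPM or more in either population.

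The contractile share had no gap at the limit. The members ran from 4.00% to 10.9% with a median of 5.46%, and the lowest member had 4.0044% against 3.9973% in the highest KO cell outside. Between 4% and 4.5% lay 135 KO cells and between 3.5% and 4% lay 144. Just inside the limit Gpnmb stood at 165 CPM, Gpx3 at 1176 CPM and Mgp at 28787 CPM, and just outside it at 149, 985 and 21082 CPM. Control cells of the same range had a median share of 6.99%, so they sat higher within it. For this reason a second ratio is given for some genes, in which control cells are standardised, that is, weighted so that each 1% bin of share (4 to 5, 5 to 6, 6 to 7, 7 to 8, 8 and over) counts as it does among the KO members. A gene given without it can differ too. Of 314 gene ratios, 138 left their counting interval with the standardised control and 2 changed sides of 1.

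**Figure D1:**
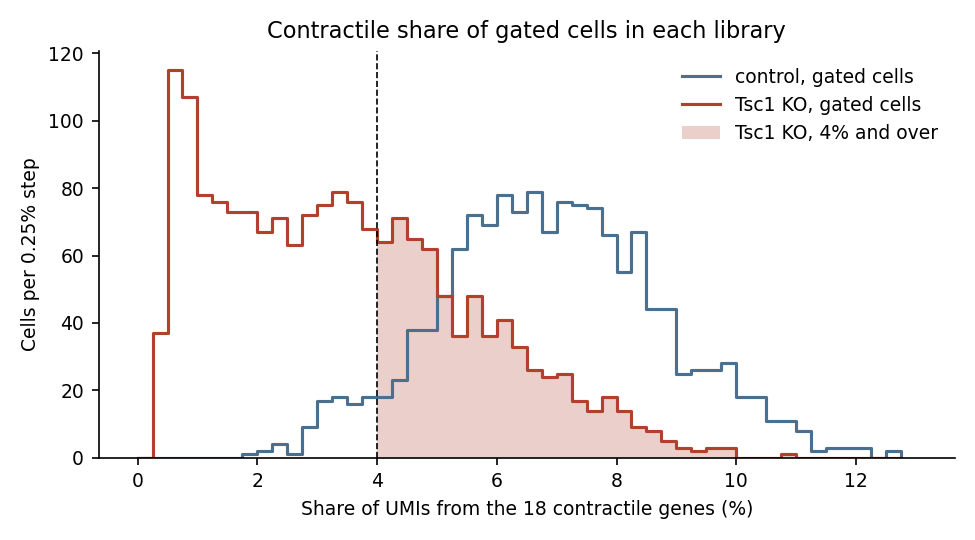
Number of gated cells (vertical axis) per 0.25% step of the share of UMIs from the 18 contractile genes (horizontal axis, percent). The KO library has a median of 3.24% and the control library of 6.88%; shading marks the 676 KO cells at 4% and over (dashed line).

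The mix of contractile genes differed between the libraries. Acta2 made up more of the contractile UMIs in the KO cells, and Cnn1, Myh11, Actg2, Des and Ppp1r14a made up less. Acta2 made up 37.9% of the 18-gene UMIs in KO members and 30.9% in control cells. Cnn1 made up 2.07% against 3.44% and Myh11 2.29% against 3.64%. The 18 genes summed to 58089 CPM in KO members and 72162 CPM in control cells of the range, so the sum was matched closely only within share bins, as at 4 to 5% with 45098 and 45859 CPM. In that bin Acta2 made up 33.9% against 24.5% and Cnn1 1.97% against 3.86%. The 18 genes define the population, so these values describe how the sum is composed.

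Against all control cells of the range, Acta2 had 21998 against 22290 CPM, a ratio of 0.987 (0.982 to 0.992). Within each of the 5 share bins it was higher in KO cells, by ratios of 1.22 to 1.37, and the standardised ratio was 1.32, so its direction depends on how the share is matched. Csrp1, a LIM protein of the actin cytoskeleton, had ratios of 1.17 to 1.30 in the 5 bins. Tagln (transgelin), Myl9 (myosin light chain) and Tpm2 (tropomyosin) were nearly level when standardised, at 0.951, 0.990 and 0.977. Myh11 had 1330 against 2625 CPM, a ratio of 0.507 (0.497 to 0.516), and 0.503 to 0.596 in the bins. Cnn1 had 1201 against 2483 CPM, 0.484 (0.474 to 0.493), and 0.503 to 0.676 in the bins. Ppp1r14a, an inhibitor of myosin phosphatase, was 2.53 times lower and 1.76 to 2.28 times lower within the bins. The gamma actin gene Actg2 was 2.23 times lower over the range, but 1.27 and 1.44 times lower in the bins of 6 to 7% and 7 to 8%. Des (desmin) was 2.93 times lower and 1.48 to 3.86 times lower in the bins. These 5 genes, Myh11, Cnn1, Ppp1r14a, Actg2 and Des, are the rule genes that passed a 1.5-fold limit, and 0 of the 18 passed it upward. Over all 2918 genes at 50 CPM or more in either population, 280 (9.6%) passed it upward and 336 (11.5%) downward, or 21.1% in either direction. The difference in Cnn1 was seen across cells: the median thinned count was 6 UMIs (0 to 34) in KO members and 12 (0 to 34) in control cells. For Acta2 the medians were 98 and 106 UMIs, with ranges of 32 to 239 and 29 to 238, so single cells of the libraries overlapped for both genes.

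**Figure D2:**
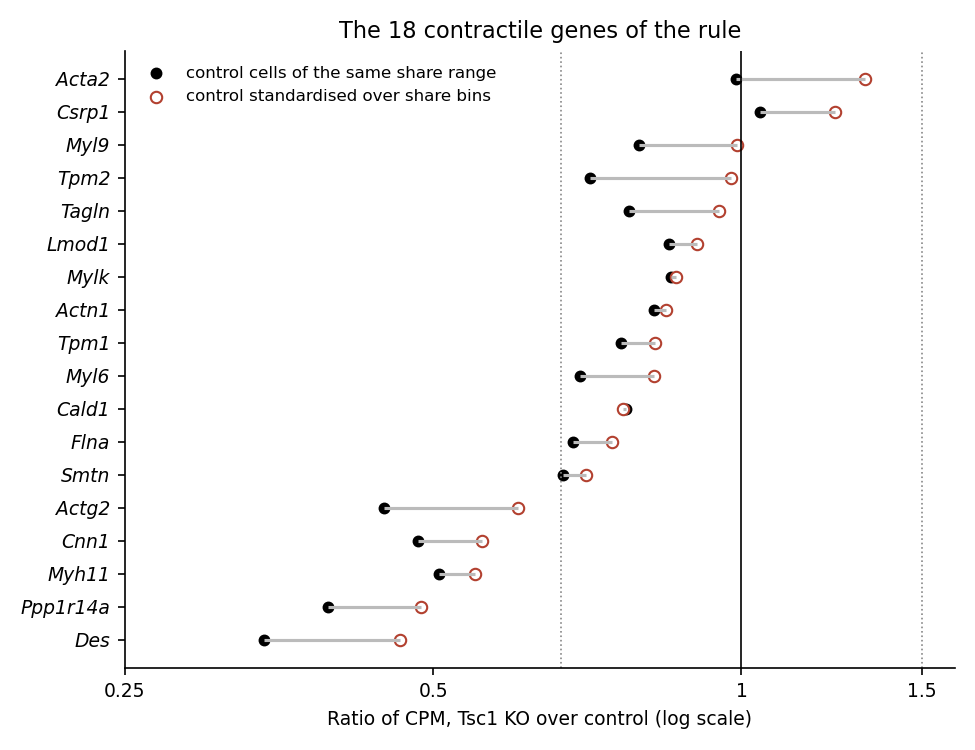
Ratio of CPM in KO members over control cells (horizontal axis, log scale) for the 18 contractile genes of the rule; filled points use all control cells of the share range, open points the control standardised over share bins, and dotted lines mark 1.5-fold in either direction. Acta2 moves from 0.987 to 1.32 on standardising, while Cnn1 (0.484 and 0.558) and Myh11 (0.507 and 0.549) stay below the lower line.

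Contractile genes that the rule did not use were mixed. Over genes at 10 CPM or more in either population, 10.4% of 7919 passed 1.5-fold upward in KO members and 9.37% downward, with a median log2 ratio of 0.00. Against the standardised control the shares were 9.98% upward and 12.5% downward of 8008. Of 35 measured contractile genes outside the rule, 2 were higher and 11 lower, with a median log2 ratio of -0.17. Sncg, gamma-synuclein, best known from neurons, had the largest ratio, at 1699 against 140 CPM, a ratio of 12.1 (11.6 to 12.7). The other higher gene was Tpm4, a tropomyosin of non-muscle cells, at 1.75 (1.67 to 1.84). Mcam (CD146), an adhesion molecule of mural cells, was lower at 117 against 412 CPM. It was seen in 39.5% of thinned KO members and 83.1% of control cells (unthinned 70.1% and 94.9%), and in 0 of 65 thinned control cells without eGFP. Hspb6, a small heat shock protein that takes part in relaxation, was 2.55 times lower, Cav1 (caveolin) 2.24 times and Synpo2 (synaptopodin 2) 2.22 times.

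Genes of vasoactive signaling were lower in part. Of 13 measured members 0 were higher and 7 lower, with a median log2 ratio of -0.73. With the standardised control 0 were higher and 6 lower, with a median of -0.53. Within the 5 share bins 6 to 8 were lower, with medians from -0.86 at 5 to 6% to -0.29 at 7 to 8%. Rgs5, Rgs4 and Rgs2, which shorten G protein signals, were at 22.5, 61.6 and 29.2 CPM in KO members against 333, 171 and 120 CPM in control cells. Gucy1b3, which encodes part of soluble guanylate cyclase, the receptor for nitric oxide, had 80.1 against 187 CPM, a ratio of 0.427 (0.396 to 0.461), while its partner Gucy1a3 had a ratio of 1.12. Among channels, the potassium channel gene Kcnk3 (TASK-1) stood at 168 against 9.50 CPM, a ratio of 17.7 (15.0 to 20.9), and Abcc9, the sulfonylurea receptor of vascular potassium channels, at 215 against 98.0 CPM. Kcnmb1, the beta subunit of the large-conductance calcium-activated potassium channel, had 155 against 251 CPM.

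Across the transcriptome, the 280 higher and 336 lower genes became 289 (9.71%) and 406 (13.6%) of 2975 with the standardised control, 23.4% in either direction. With a total that leaves out rule, mitochondrially encoded and the most abundant genes, 416 were higher and 317 lower. Gpnmb, a glycoprotein of lysosomes and melanosomes (chr6:49036546-49070929, mm10), had 130 against 0.931 CPM, a ratio of 140 (84.4 to 250). Gpx3, a secreted glutathione peroxidase (chr11:54902453-54910377), had 955 against 4.41 CPM, a ratio of 217 (172 to 278), or 89.8 when standardised. In the control bin of 4 to 5%, 2 of 117 cells held all 26 Gpx3 UMIs, 1 of them 25, and the ratio was 45.2 there and 231 to 342 in the other 4 bins. Both were named as markers with the rule, so their size is a description.

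Spp1 (osteopontin) had 789 UMIs, or 72.7 CPM, in KO members and 0 in control cells, at least 390-fold higher against a floor of 3 UMIs over the control population. That level leaned on few cells: 3 KO cells held 417 of the 789 UMIs, 1 of them 322, and without the UMIs of these 3 the level was 34.3 CPM. A UMI of Spp1 was found in 189 KO members, and free RNA can add to that number. Ptgds, which makes prostaglandin D2, had 52.5 CPM and a ratio of 84.6 (45.7 to 177), or 109 when standardised. Cdh11, a cadherin of mesenchymal cells, followed at 37.5 (25.5 to 57.3), Gpm6a, a membrane glycoprotein best known from neurons, at 26.7 and Apoe, the lipid carrier apolipoprotein E, at 21.9 (20.9 to 22.9), with 2709 against 124 CPM. Ifi27l2a, an interferon-induced gene, had a ratio of 14.6, Tmem176b, a membrane protein, 14.5 and Chchd10, a protein of the mitochondrial intermembrane space, 12.7. The 12 largest ratios, which also include Kcnk3 and Sncg, were at least 1.5 in each of the 5 share bins, with levels below 3 UMIs set to 3.

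At the low end stood Wif1, a secreted Wnt antagonist, with 6.73 against 178 CPM, 26.5 times lower, followed by Rgs5 at 14.8 times lower and Meg3, a noncoding RNA of an imprinted locus, at 9.06 times lower. When standardised, Wif1, Rgs5 and Meg3 were 21.8, 20.5 and 13.1 times lower. Bdh1, a ketone body enzyme, was 8.42 times lower. Sema3d, a guidance cue, was 5.91 times lower and the glycosyltransferase gene Galnt16 5.87 times. Crispld2 and Fibin (secreted proteins), Optc (the small proteoglycan opticin), Dusp10 (a phosphatase of stress kinases) and Mfap5 (a microfibril protein) were 4.82 to 5.50 times lower. The 12 smallest ratios were at most 1/1.5 in each of the 5 bins. Rgs5 was least even, 36.7 times lower at 7 to 8% and 4.36 times lower at 8% and over, where 3 of 48 KO cells held 24 of its 39 UMIs.

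Free RNA in droplets can put UMIs into cells that do not express a gene. The KO library holds 11 cells with Xist and no eGFP UMI, a set picked after its values were seen, with a median depth of 4735 UMIs. Over their 50558 UMIs Gpnmb, Gpx3, Myh11 and Cnn1 had 0 UMIs, with an upper 95% limit of 73.0 CPM for each. Mgp had 10 UMIs, or 198 CPM (94.8 to 364). Apoe stood at 158 CPM there, Cd63 at 119 CPM and Chchd10 at 98.9 CPM. Spp1 had 1 UMI in 1 of the 11 cells, or 19.8 CPM (0.501 to 110), an interval that holds the 34.3 CPM of the KO members without their 3 richest cells. The 1 remaining KO cell with no eGFP UMI had no Xist and held 11 UMIs of Gpx3. Whether these cells met the same free RNA as the eGFP-positive cells was not tested. In the control library 330 cells without eGFP had 18.96 CPM of Mgp, with a median depth of 3750 UMIs.

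A UMI of Gpx3 or Gpnmb was found in most KO members at full depth, and in few control cells. After thinning, 38.9% of KO members (35.2 to 42.7) and 0.552% of control cells (0.222 to 1.13) had a Gpnmb UMI (unthinned 68.6% and 0.830%). For Gpx3 the shares were 80.0% (76.8 to 82.9) and 0.946% (0.490 to 1.65), with 94.5% and 1.81% unthinned. Apoe reached 99.1% against 28.0% (unthinned 99.9% and 43.4%). Among control cells without eGFP, 65 were deep enough to thin. Of these 1.54% (0.0389 to 8.28) had a Gpnmb UMI and 3.08% (0.375 to 10.7) a Gpx3 UMI. These are 1 and 2 cells, and both intervals hold the control shares, so 65 cells are too few to set a background. Apoe was found in 52.3% of those 65 cells, so they give no background for it. Wif1 was seen in 3.26% of thinned KO members and 43.7% of control cells (unthinned 7.84% and 61.5%), and Rgs5 in 7.12% and 42.2% (unthinned 13.8% and 60.2%). In control cells without eGFP, Wif1 was seen in 0 of 65 and Rgs5 in 3.08% (0.375 to 10.7), an interval that holds the share of the KO members.

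**Figure D3:**
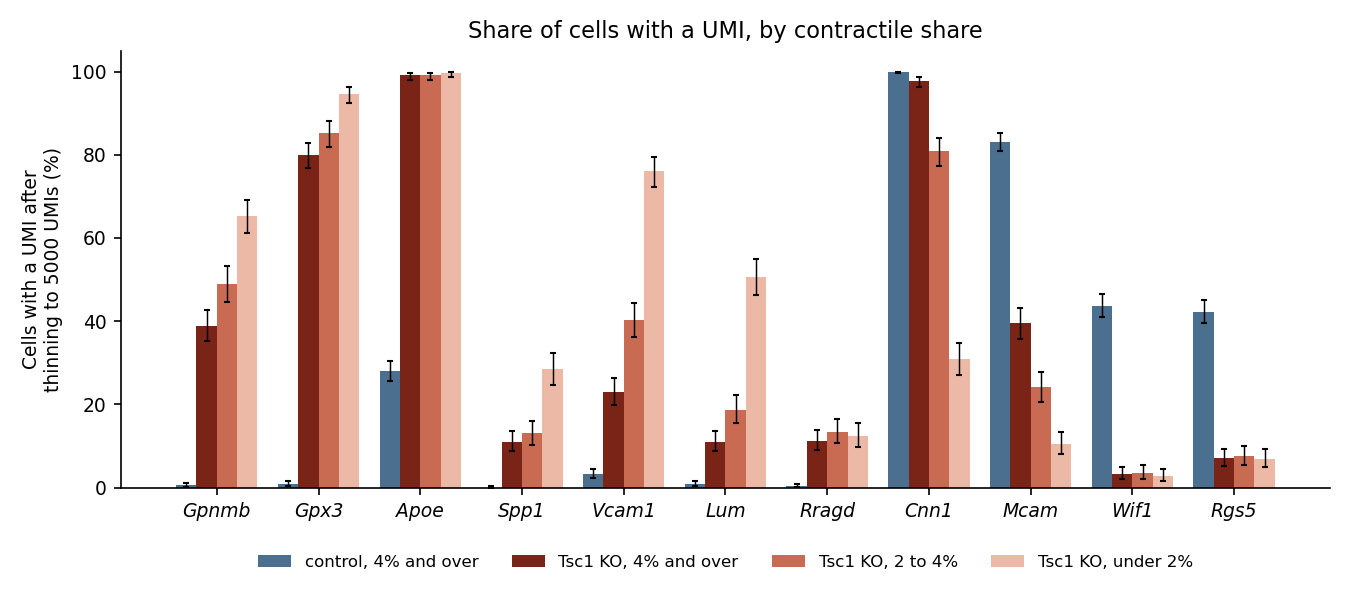
Percent of cells with at least 1 UMI after thinning to 5000 UMIs (vertical axis) for 11 genes, in control cells at 4% and over and in KO cells of 3 ranges of contractile share; error bars are exact binomial 95% intervals and cover counting error only. Gpx3 is seen in 80.0% of KO members and 0.946% of control cells, and Cnn1 in 97.8% of KO members and 30.8% of KO cells under 2%.

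Within the KO library the markers of the members did not switch off as the contractile share increased. Gpnmb stood at 141 CPM in KO members with 4 to 5%, and at 101 CPM in those with 8% and over, a ratio of 0.717 (0.567 to 0.898). Control cells had 1 to 4 UMIs of Gpnmb in a bin, so the ratios there are imprecise, and the lowest of them was 112 (43.2 to 414). Gpx3 went from 1048 to 760 CPM over the same bins and Apoe from 2726 to 2546 CPM. Mgp, matrix Gla protein, which inhibits mineral deposition in arteries, went from 26362 to 13444 CPM, and its ratio to the control lay between 2.74 and 4.48. Spp1 had a wider range, from 128 CPM at 4 to 5% to 15.9 CPM at 8% and over. Wif1 stayed between 5.98 and 10.2 CPM in KO members of every bin, while control cells had 98.9 to 202 CPM.

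Across the 674 thinned KO members the Spearman correlation of a gene's count with the contractile share was -0.03 for Gpnmb, -0.06 for Gpx3, -0.04 for Mgp, 0.03 for Apoe and -0.15 for Vcam1. These are descriptions over cells of 1 library that share their preparation. The share itself had a correlation of 0.205 with the unthinned UMI total in the 676 KO members and of 0.306 in the control cells. The genes with the strongest correlations in KO members are given with their values in control cells. Hspb1, a small heat shock protein, had 0.38 in KO and 0.28 in control cells, Dstn (destrin, which severs actin filaments) 0.35 and 0.37, and Csrp2, a LIM protein, 0.31 and 0.23. In the other direction were Ftl1, the ferritin light chain, at -0.39 and -0.26, the nuclear RNA Malat1 at -0.33 and -0.40, and Klf4, a transcription factor that opposes the contractile program, at -0.27 and -0.33.

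**Figure D4:**
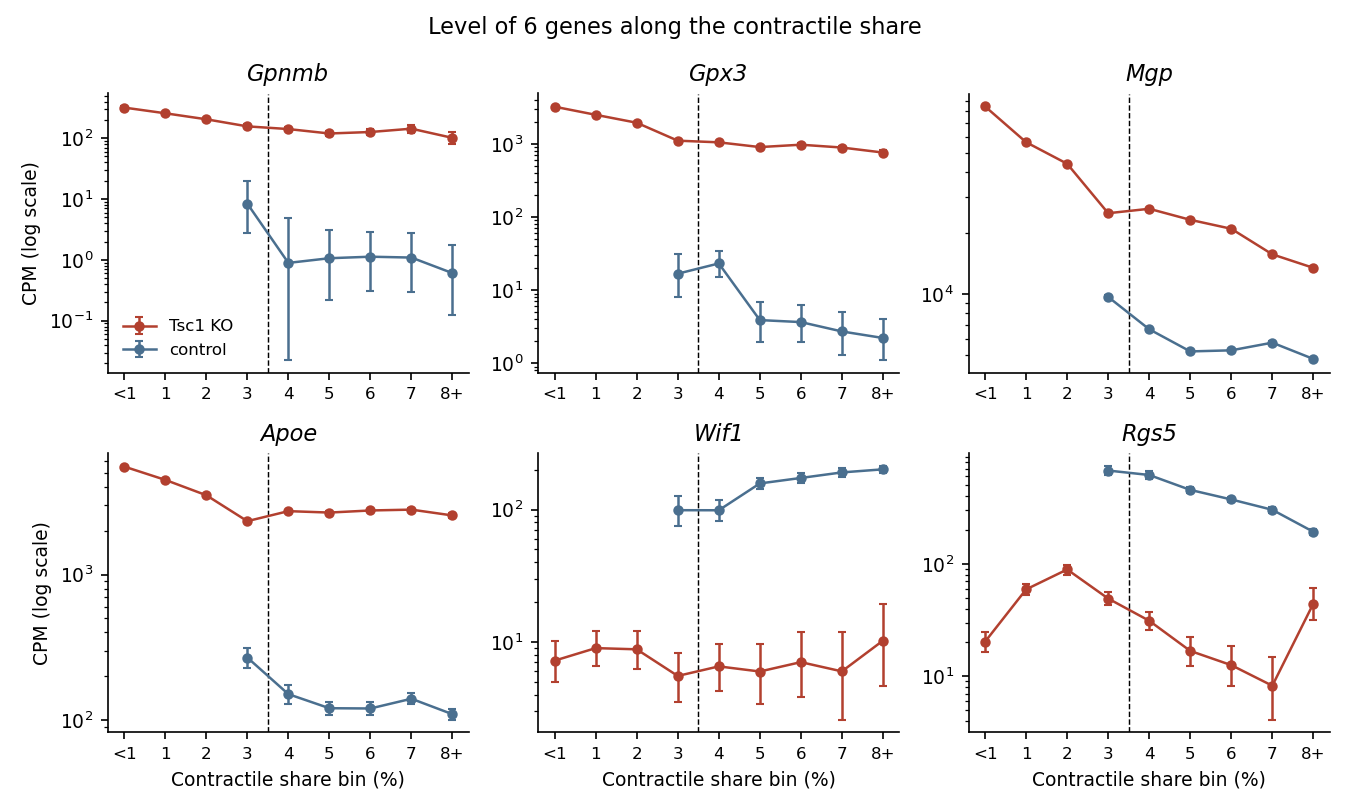
Level in CPM (vertical axes, log scale) of 6 genes in bins of contractile share (horizontal axes, percent; 8+ is 8% and over) in the KO and control libraries; control bins under 20 cells are left out and bars are Poisson 95% intervals of the summed count. To the right of the dashed line at 4%, Gpnmb runs from 141 to 101 CPM in KO cells against 0.606 to 1.13 CPM in control cells, and Wif1 runs from 5.98 to 10.2 CPM in KO cells.

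Transcripts of lysosomes were higher as a group in KO cells that kept a high contractile share. Of 22 measured genes of lysosomal membrane and export 13 were higher and 0 lower, with a median log2 ratio of 0.70; Gpnmb, a marker named with the rule, is 1 of the 13. Of 40 lysosomal hydrolases 16 were higher and 2 lower, with a median of 0.44, and of 16 subunits of the proton pump that acidifies lysosomes 4 were higher and 1 lower, with a median of 0.51. With the standardised control 7 of the pump subunits were higher, and within the share bins 3 to 11 of them, with medians of 0.52 to 0.65. Within the 5 share bins the medians lay between 0.55 and 0.70 for membrane genes and between 0.27 and 0.57 for hydrolases. Hexa and Lipa, enzymes that degrade gangliosides and lipid esters, stood at 246 against 91.7 CPM and 46.3 against 18.1 CPM. Cd63, a membrane protein of late endosomes and lysosomes, had 1615 against 658 CPM and Lamp2 188 against 91.6 CPM. Tmem192, another lysosomal membrane protein, had a ratio of 3.73 (3.01 to 4.64), and Cln3, whose loss causes a neuronal storage disease, 2.69 (2.09 to 3.49). Ctsf, a cysteine protease, was lower at 0.548 (0.476 to 0.630).

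TFEB and TFE3 bind a short sequence known as the CLEAR element, at whose core stands TCACGTG, in promoters of lysosomal genes. Promoters were taken from RefSeq (GRCm38.p6, the mm10 build), and the 250 bases before each start were searched on both strands. Of 59 lysosomal genes at 10 CPM or more with a promoter in the table, 27.1% held TCACGTG, against 6.39% of 6120 genes at 10 CPM or more and 3.58% of all 27025. The shorter CACGTG, which TCACGTG contains, was found in 30.5%, 10.6% and 6.86%. Among the lysosomal genes it did not go with the ratio: TCACGTG was in 6 of the 27 that were at least 1.5 times higher and in 10 of the 32 others. None of the 15 rule genes with a promoter in the table held it. The 6 higher genes are Sgsh and Igf2r (a sulfatase of heparan sulfate and the receptor that sorts hydrolases), Mcoln1 and Clcn7 (a cation channel and a chloride transporter of the lysosomal membrane), Cln3, and Atp6v0b (a proton pump subunit). They are shown 5′ to 3′ on the gene's strand with the motif, or its reverse complement CACGTGA, in capitals and up to 15 bases on either side. A match is a description of the letters and not evidence of binding.
Sgsh, chr11:119355518-119355554, minus strand: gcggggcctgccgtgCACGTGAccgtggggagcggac
Mcoln1, chr8:3500432-3500468, plus strand: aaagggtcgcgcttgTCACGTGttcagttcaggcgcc
Cln3, chr7:126583364-126583400, minus strand: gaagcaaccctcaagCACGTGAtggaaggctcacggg
Igf2r, chr17:12769734-12769770, minus strand: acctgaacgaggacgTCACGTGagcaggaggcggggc
Clcn7, chr17:25133360-25133390, plus strand: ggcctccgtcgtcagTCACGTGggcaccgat
Atp6v0b, chr4:117887345-117887381, minus strand: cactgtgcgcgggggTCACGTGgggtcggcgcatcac
The motif began 29 bases before the start of Sgsh, 72 before Mcoln1, 149 before Cln3, 49 before Igf2r, 16 before Clcn7 and 37 before Atp6v0b. The ratios of the 6 genes were 1.51, 1.64, 2.69, 1.55, 2.04 and 2.29 in that order. The start used for Cln3 lies inside the gene's span (chr7:126571207-126585817), so it is an internal start and not the outermost one.

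Genes between mTORC1 and the lysosome were among those that differed. Rragd, a GTPase that recruits mTORC1 to lysosomes, had 22.5 against 0.993 CPM, a ratio of 22.6 (13.7 to 40.2), and 11.3% of thinned KO members against 0.315% of control cells had a UMI of it (28.6% and 1.21% without thinning). None of 65 thinned control cells without eGFP had one. Its level was about the same in KO cells of lower share, at 27.4 CPM between 2 and 4% and 28.5 CPM under 2%. Flcn (folliculin) and its partner Fnip1, which act on the Rag GTPases, had ratios of 1.93 and 1.997, and Tfeb itself 0.539 (0.448 to 0.646). Of the 14 measured genes in this list 6 were higher and 1 lower. Of 20 TSC and mTOR complex genes 4 were higher and 1 lower, against 10.4% and 9.37% of all genes at 10 CPM or more. The median log2 ratio of this list was 0.05, or -0.09 when standardised, and its summed level was 2427 against 2830 CPM. Tsc2 had a ratio of 1.58 (1.33 to 1.88), Sesn3, a stress-induced inhibitor of mTORC1, 3.41 and Ddit4, another such inhibitor, 1.66, while Irs2, which links insulin receptors to the pathway, had 0.462. Of 21 autophagy genes 5 were higher and 0 lower, among them Gabarapl1 at 1.81 and Map1lc3b at 1.69, which both encode proteins of the autophagosome membrane, and Atg3, which attaches lipid to them, at 1.63.

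**Figure D5:**
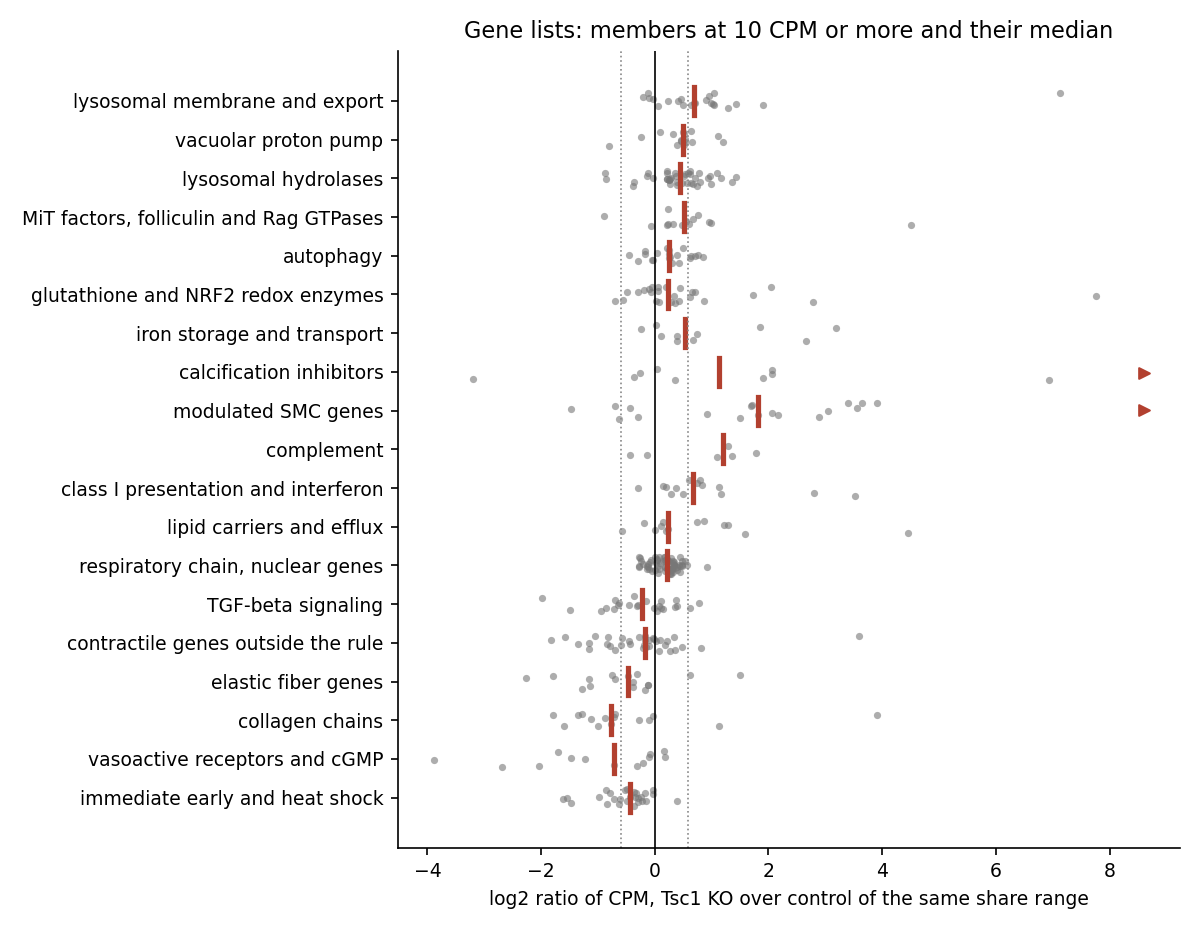
Log2 ratio of CPM in KO members over control cells of the same share range (horizontal axis) for the measured genes of 19 lists (points, spread vertically for display) and the list median (thick bar); dotted lines mark 1.5-fold and the arrowheads mark Spp1, drawn at its lower bound. Lysosomal membrane genes center on 0.70 and collagen chains on -0.77, against 0.00 for all genes at 10 CPM or more.

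Redox, iron and lipid genes were higher in part. Besides Gpx3, the microsomal glutathione transferases Mgst1 and Mgst3 had 248 against 36.1 CPM and 197 against 47.6 CPM, and Hmox1, heme oxygenase 1, a ratio of 3.31 (2.64 to 4.18). Nqo1 (a quinone reductase) and Gstm1 (a cytosolic glutathione transferase), also targets of the redox factor NRF2, had 0.618 and 0.681. In all 8 of 26 were higher and 1 lower. Of 10 iron genes 5 were higher and 0 lower. The ferritin chains Fth1 and Ftl1 had 16023 against 9573 CPM and 3652 against 1012 CPM, Trf (transferrin) a ratio of 9.15 (5.92 to 14.7), and Cp (ceruloplasmin, a ferroxidase) 6.30, or 4.09 when standardised. Among 13 lipid carrier genes 6 were higher and 0 lower, led by Apoe, Pltp (phospholipid transfer protein) at 3.02 and Nr1h3 (the oxysterol receptor LXR alpha) at 2.44. Of 68 nuclear genes of the respiratory chain 1 was higher and 0 lower, Cox5a at 1.89, and the median was 0.22. With the standardised control 6 were higher and 0 lower, with a median of 0.35, and within the share bins 3 to 14 were higher. None of 13 mitochondrially encoded genes passed 1.5-fold.

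Several genes known from calcification and from modulated smooth muscle were higher in KO members. Of 10 measured calcification inhibitors 5 were higher and 1 lower, with a median log2 ratio of 1.13. Within the 5 share bins the medians lay between 0.74 and 1.06. The standardised median of 0.26 leaves out Spp1, which had no control UMI, so it covers fewer genes and is not comparable. Mgp, after Malat1 the most abundant transcript of the KO members, had 22249 against 5297 CPM, a ratio of 4.20 (4.17 to 4.23). The median thinned count of Mgp was 62.5 UMIs per KO member (8 to 557) and 19 per control cell (2 to 338), so single cells overlapped. Ank, a pyrophosphate transporter, had a ratio of 3.72 and Tnfrsf11b (osteoprotegerin) 4.16. Fetub, a relative of the plasma calcification inhibitor fetuin-A, had 30.3 against 0.248 CPM, a ratio of 122 (47.2 to 451). Bmp3, an antagonist of bone morphogenetic protein signals, was 9.21 times lower.

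Of 19 modulated smooth muscle genes 14 were higher and 3 lower, with a median of 1.82, and the median was the same with Spp1 at its bound. The standardised median of 1.33 leaves out Spp1, and within the share bins the medians lay between 1.38 and 1.84. Lgals3 (galectin-3) had 329 against 39.8 CPM, a ratio of 8.26 (7.59 to 8.999), and Igfbp5, which binds insulin-like growth factors, 149 against 20.2 CPM. Several other genes of this kind owed their control level to a few cells in the lowest share bin. Vcam1, an adhesion molecule, had a ratio of 10.6 (9.02 to 12.5) that became 3.54 when standardised: in the control bin of 4 to 5%, 3 of 117 cells held 54 of 85 UMIs. For Timp1, an inhibitor of matrix proteases, with 3.28 and 1.18, 3 cells held 88 of 101 UMIs there, and for Thbs1 (thrombospondin 1), with 4.48 and 2.17, 63 of 70. Vcam1 was also uneven among KO members, where 3 of the 262 cells at 4 to 5% held 337 of 782 UMIs. Fn1 (fibronectin) and Fgl2, a fibrinogen-like protein, went the other way, at 0.646 and 0.361.

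Matrix transcripts were mostly lower. Of 15 collagen chains 2 were higher and 10 lower, with a median of -0.77, and of 17 elastic fiber genes 2 were higher and 8 lower, with a median of -0.47. With the standardised control 1 of the elastic fiber genes was higher and 9 lower, with a median of -0.62. Eln (elastin) had 1049 against 2554 CPM, a ratio of 0.411 (0.402 to 0.420), and was below 0.414 in each share bin. Mfap4 and Mfap5, proteins of elastic microfibrils, were 2.24 and 4.82 times lower. The fibrillar collagens Col1a2 and Col3a1 were 2.42 and 2.19 times lower, and Col6a1 and Col6a2 of microfibrillar collagen 3.03 and 3.44 times lower. The exceptions were Col8a1, a short-chain collagen of remodeling vessels, at 29.9 against 1.99 CPM, a ratio of 15.0 (10.4 to 22.3) or 23.8 when standardised, and Col14a1 at 2.18. Among 24 TGF-beta signaling genes 2 were higher and 8 lower: the ligand Tgfb1 and receptor Tgfbr2 had ratios of 1.72 and 1.53, and Bambi (a decoy receptor) and Smad6 (an inhibitory Smad) 0.251 and 0.356. Of secreted Wnt and semaphorin factors, Frzb and Dkk3, which antagonize Wnt signals, were at 3.17 and 2.30, against 0.254 for Sfrp2, another such antagonist, and 0.0377 for Wif1. Sost (sclerostin), an abundant Wnt inhibitor of aortic smooth muscle, had 1064 against 1978 CPM.

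Immune genes were higher in part, while the macrophage and lymphocyte markers above were scarce. Of 14 measured genes of class I presentation and interferon response 8 were higher and 0 lower, with a median of 0.67. Ifit1 and Ifit3, antiviral proteins induced by interferon, had ratios of 11.5 (6.81 to 20.8), or 7.22 when standardised, and 6.98 (4.94 to 10.1), and Bst2 (tetherin) 2.23. Of 6 complement genes 4 were higher and 0 lower, among them C1s1, a protease of the classical pathway, at 3.44 (2.96 to 4.00). Of 9 measured genes of chemokines and adhesion 4 were higher and 2 lower, with a median of 0.56, or 0.21 when standardised. Their summed level was 920 against 939 CPM. Icam1, a leukocyte adhesion molecule, had 11.2 against 0.372 CPM, a ratio of 30.2 (13.5 to 83.9), or 12.3 when standardised. Cxcl1, a neutrophil chemokine, had 2.11 against the range and 0.810 when standardised, so its direction depends on how the share is matched.

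Immediate early and heat shock genes, which also respond to tissue digestion, were lower or level. Of 27 measured members 0 were higher and 10 lower, with a median of -0.44. With the standardised control 14 were lower, with a median of -0.61. Hspa1a, an inducible chaperone, had 422 against 1298 CPM and Nr4a1, an orphan nuclear receptor, 395 against 1157 CPM. Of 82 ribosomal protein genes 0 were higher and 13 lower, with a median of -0.34, and together they made up 115336 CPM in KO members and 149113 CPM in control cells. The KO members also had more UMIs per cell and a larger mitochondrially encoded total, at 60481 against 49249 CPM, and the part of depth or handling in these differences was not tested.

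The KO members differed among themselves. After thinning to 5000 UMIs, the variance over cells was 84.5 times the mean for Mgp and 9.99 times for Gpx3, a ratio that grows with the mean and so is not set against control cells. Gpx3 had a median of 2 UMIs and a maximum of 67, and the tenth of cells with the highest counts held 44.2% of its UMIs. The counts of some genes lay mostly in few cells, and a limit of 5 thinned UMIs, picked after the values were seen, marks such cells. Tnnt2 (cardiac troponin T) reached 5 thinned UMIs in 20 of 674 KO members, which held 73.5% of its UMIs, and in 33 of 1269 control cells. Ifi27l2a did so in 21 KO members and 0 control cells, and Spp1 in 7 and 0. Meg3 did so in 17 KO members, or 2.52%, against 235 control cells, or 18.5%. Such sets are too small for their overlap to be read.

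The 4 genes Gpnmb, Gpx3, Spp1 and Vcam1 were found in varied combinations. Of the thinned KO members 72 had a UMI of 0 of them, 267 of 1, 249 of 2, 79 of 3 and 7 of all 4. The median contractile share was 5.31% in cells with 0 of them, 5.57% in cells with 1, 5.66% in cells with 2, 4.78% in cells with 3 and 4.74% in cells with 4. A Gpnmb UMI was found in 39.9% of cells with a Gpx3 UMI and in 34.8% of cells without one, and the Spearman correlation of their counts was 0.08.

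Among KO cells with less contractile transcript, some of these genes were much more abundant and others were not. In KO members, KO cells of 2 to 4% and KO cells under 2%, in that order, Vcam1 stood at 114, 260 and 1014 CPM. Lum, a small proteoglycan, had 30.2, 80.1 and 646 CPM, and Spp1 72.7, 115 and 705 CPM. Gpnmb had a narrower range, with 130, 180 and 285 CPM, and Apoe had 2709, 2907 and 4963 CPM. Sncg and Chchd10 ran the other way, at 1699, 1588 and 1227 CPM and at 362, 286 and 212 CPM, as did Optc, a small proteoglycan that was lower than in control cells, at 40.8, 19.2 and 5.51 CPM. Wif1, at 6.73, 7.14 and 8.16 CPM, and Cd63, at 1615, 1376 and 1604 CPM, had narrow ranges. Other lysosomal genes were higher at low share. From KO cells at 8% and over to those under 1%, Hexa went from 208 to 542 CPM and Lamp2 from 180 to 315 CPM. Lipa went from 34.1 to 78.2 CPM, Gpx3 from 760 to 3214 CPM and Mgp from 13444 to 84619 CPM between the same bins. The shares of cells with a UMI gave the same order for Vcam1, at 23%, 40.2% and 76.0% after thinning (unthinned 49.7%, 62.5% and 88.2%). The ranges were cut from a continuous share within 1 library, so these are positions along it and not cell types.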

How the data were processed

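The authors deposited, for each of 2 libraries, a matrix of raw UMI counts for 28000 features per cell barcode. Tools named are Cell Ranger, bcl2fastq and Seurat 2.0, and the build named is mm10, per the submitters' processing notes; no further settings were found in the labels. The deposited table of the authors' averages was not used. Groups came from the labels. The members, gene lists and tests were chosen with earlier results of these data known, so nothing here is independent of them.

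Gates and the contractile share were computed per cell from the counts. CPM is a gene's UMIs summed over cells, scaled by the summed total. Ratios carry exact conditional binomial 95% intervals. Clopper-Pearson 95% intervals were used for shares of cells. Both cover counting error only. A control count of 0 was set to 3. Genes at 50 CPM or more in either population were listed at 1.5-fold, and list members at 10 CPM or more. Thinning drew 5000 UMIs per cell without replacement. Named genes were the rule genes, Tsc1, Tsc2 and eGFP, the 5 most abundant, the 12 largest and 12 smallest ratios (at 50 CPM; without rule, mitochondrial, ribosomal, transgene, sex-linked, haemoglobin and unnamed genes), members at either end of each list or changed 2 or more times, the 12 most variable genes, the 8 most correlated genes at either end, and markers. Doublets stayed in; Scrublet (scanpy 1.11.5) marked 6 cells per library, of which 2 were members. Thinning and ratios were tested on simulated data. Python 3.11.15, numpy 2.4.6, scipy 1.17.1 and pandas 2.3.3 were used. A count of 3 equals 0.276 CPM in the members and 0.186 CPM in the control cells. Alternatives varied the gates, the share limit, the scaling and the thresholds. Some genes that the rule for named genes selects are not reported here.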

Additional observations from a re-analysis of the deposited data

How the results depend on the processing

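The 314 gene ratios were recomputed under 14 alternatives each. Of the 4396 values, 3490 stayed within the main counting interval, 903 moved outside it and 3, of genes at 10 CPM or more that were past 1.5-fold, changed sides of 1. That CPM limit was chosen after the values were seen, and Dpt, Ms4a1, Emcn and Nkg7, under it, also changed sides, as did genes inside 1.5-fold such as Acta2 and Sox9. Cxcl1 went to 0.810 and Fbln1 to 0.874 with the standardised control, and Fbln1 to 0.715 without the limit on Dlx5, Dlx6 and Msx2. The ratio of Gpx3 was 89.8 with the standardised control, 300.4 and 323 at share limits of 5% and 6%, and 157 at a mitochondrial limit of 5%. The genes higher and lower were 826 and 742 at 10 CPM, 1964 and 1806 with 10 UMIs and no CPM minimum, and 112 and 132 at 2-fold. With a total that leaves out rule, mitochondrial and the most abundant genes they were 416 and 317, so higher calls outnumbered lower ones there. The KO members numbered 414 and 246 at share limits of 5% and 6% and 168 at the mitochondrial limit of 5%. The thinned share of cells with Gpnmb was 22.2% at 2500 UMIs, 68.6% unthinned, 12.9% with 2 UMIs required and 45.8% at the mitochondrial limit of 5%, and that with Gpx3 66.1%, 94.5% and 61.4% in the first 3 of these. Of 490 list medians 0 changed sign among those past 1.5-fold, 4 were no longer past it and 17 were newly past it. No paired analysis was possible because each group has 1 library and the replicate numbers only name it. Depth limits genes near 1 CPM, and the lack of a second library per genotype limits every comparison.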

Other observations

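Among genes of prostaglandin and retinoid handling, the KO cells with a high contractile share differed in both directions. Of 8 members at 10 CPM or more in either population 3 were higher and 1 lower than in control cells of the same share range. Slco2a1 and Aldh1a1, at 0.869 and 0.993 CPM in control cells, met the 10 CPM limit only through the KO members. That they were higher thus followed from the limit, and the count of higher genes is not read as a result about the list. Slco2a1, which takes prostaglandins up into cells, had 42.7 against 0.869 CPM, a ratio of 49.1 (29.0 to 90.5), or 15.3 when standardised, since 1 control cell held 8 of its UMIs. Aldh1a1, which makes retinoic acid, had 12.99 against 0.993 CPM, a ratio of 13.1, or 5.48 when standardised. Ptgs2, the inducible cyclooxygenase, was lower at 17.9 against 81.5 CPM.

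Over all 7919 genes at 10 CPM or more, 10.4% were higher and 9.37% lower. Small counts near or under those shares, as for glycolysis below, are not read as results about a list. Of 21 genes of sterol and fatty acid synthesis 5 were higher and 0 lower, with a median log2 ratio of 0.28 that was 0.02 when standardised. Fdps, of the mevalonate pathway, had a ratio of 1.85 (1.69 to 2.03) and the desaturase gene Scd2 1.85 (1.69 to 2.04). Of 21 genes of glycolysis and the pentose phosphate pathway 2 were higher and 1 lower: Pgd, a pentose phosphate enzyme, had 43.4 against 23.4 CPM and Pfkm, the muscle form of phosphofructokinase, 15.5 against 33.5 CPM. Of 9 imprinted genes 0 were higher and 4 lower, among them Meg3 and Peg3, a zinc finger gene, at 12.1 against 26.9 CPM. Of 3 Hox genes 0 were higher and 2 lower, Hoxb2 at 0.412 and Hoxa3 at 0.598. Hes1, a target of Notch, had 359 against 175 CPM, while the receptor Notch3 had 15.8 against 23.7 CPM. Of 8 genes of bone and cartilage lineages 2 were higher and 1 lower, and Sox9, a transcription factor of cartilage, had 44.0 against 36.6 CPM, a ratio of 1.202, or 0.839 when standardised.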
